A study of Mus musculus with 2 samples.

Results

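Spleen T cells that carried transcripts of several receptor-induced genes were described across 2 single-cell libraries. A cell was taken as a member when it held at least 1 unique molecular identifier (UMI, a tag that counts 1 captured molecule) of at least 2 of 7 rule genes, namely Nr4a1, Nr4a2, Nr4a3, Egr1, Egr2, Egr3 and Tnfrsf9. It also needed at least 200 detected genes, at most 25% of its UMIs from mitochondrial genes, and at least 1 UMI of Trac, Cd3e or Cd3g, which encode parts of the T cell receptor complex. By this rule 2916 of 26285 T cells were members, out of 26620 cells in the files. The LatY136F CD45-KO library gave 1403 member cells of 12645 T cells, and the LatY136F library gave 1513 of 13640. The cells were chosen by the measured UMIs of the 7 rule genes, so the levels of those genes are a description only.

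Both genotypes carry the LatY136F allele, a tyrosine substitution in LAT that abolishes the docking of phospholipase C gamma and is known for a T helper 2-type lymphoproliferation. The LatY136F CD45-KO mice in addition lack CD45, a transmembrane phosphatase whose gene is Ptprc. Mice were 8 to 9 weeks old and received no treatment named in the labels. Spleen cells positive for CD3 and CD5 were sorted and captured on the BD Rhapsody system, with 1 library per genotype. How many mice a library pools is not stated in the labels, and no wild-type library was analysed here. With 1 library per genotype no test was possible, so differences between the libraries have no replicate check and carry no p-value. Ratios are log2 ratios of CPM (summed UMIs of a gene per 1000000 UMIs of the same cells). Their 95% intervals are exact binomial intervals of 2 Poisson counts, shares carry exact Clopper-Pearson intervals, and both cover counting error only.

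When a T cell receptor binds its ligand, calcium, Ras and NF-kB pathways switch on a first wave of genes. The Egr genes encode zinc finger transcription factors and the Nr4a genes encode orphan nuclear receptors, and both families belong to that wave. Tnfrsf9 encodes the costimulatory receptor 4-1BB, which appears later on activated cells. LAT is the scaffold that couples the receptor to these pathways, and CD45 acts upstream of LAT, on Lck and Fyn.

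The files held 29268453 UMIs from 12845 cells in the CD45-KO library and 35300371 UMIs from 13775 cells in the LatY136F library. Median depth of the member cells was 2326 UMIs and 1251 genes in the CD45-KO library, and 2553 UMIs and 1369 genes in the LatY136F library. The remaining T cells were shallower, with medians of 1965 UMIs in CD45-KO and 2124 UMIs in LatY136F. Each member was therefore paired with 1 remaining T cell of the same library and nearest depth, called a matched T cell. The matched T cells had median depths of 2326 UMIs in CD45-KO and 2553 UMIs in LatY136F. The 2 libraries shared 223 cell indices, 2 of them among the member cells. Cd3d, Trbc2, Cd5 and Lck differed by less than 1.5-fold between member and matched T cells in both libraries. Ptprc was at 1236 CPM in CD45-KO members and 1798 CPM in LatY136F members, which is -0.54 on the log2 scale (-0.59 to -0.49), so its transcripts were counted in both genotypes. Which exons the deletion removes is not stated in the labels, so this level does not check the genotype.

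Before correction for depth, member cells made up nearly the same share of T cells in both genotypes. The share followed depth, and at equal depth it was higher in CD45-KO. Without any correction they were 11.1% of T cells in CD45-KO (10.6 to 11.7%) and 11.1% in LatY136F (10.6 to 11.6%). After every cell was thinned to 1000 UMIs, 679 of 12317 CD45-KO T cells (5.51%, 5.12 to 5.93%) and 625 of 13242 LatY136F T cells (4.72%, 4.36 to 5.09%) still met the rule. That thinning left out 328 shallower CD45-KO cells and 398 LatY136F cells. After thinning to 2000 UMIs the shares were 11.3% in CD45-KO (10.5 to 12.1%) and 9.59% in LatY136F (8.95 to 10.3%). The deeper thinning left out 6332 of 12645 CD45-KO T cells and 5719 of 13640 LatY136F T cells, so it compared only the deeper cells. The intervals of the 2 libraries did not overlap at either thinning, whereas the unthinned shares were equal to the first decimal. Among T cells with at least 1000 and under 1500 UMIs, members were 5.90% in CD45-KO and 5.81% in LatY136F. Among those with 5000 UMIs or more they were 30.5% (25.9 to 35.3%) in CD45-KO and 21.2% (18.5 to 24.2%) in LatY136F. The CD45-KO share was the higher in each of the 6 bins, but the deepest bin was the only one in which the intervals did not overlap.

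**Figure D1:**
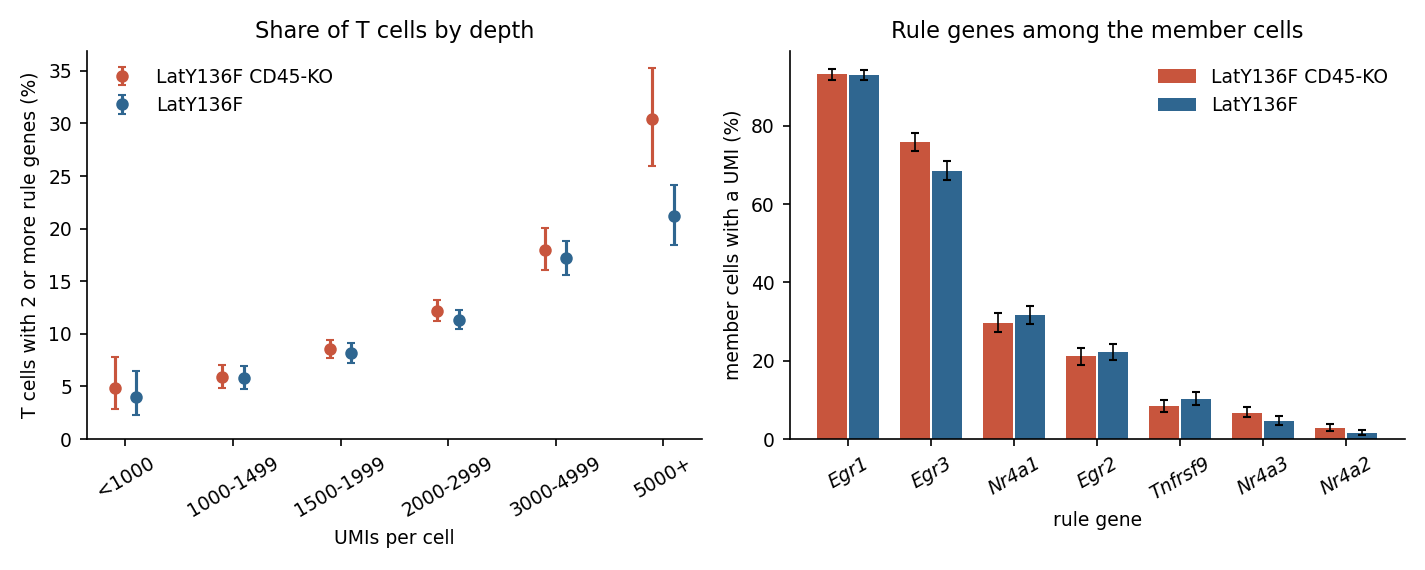
Left, the percentage of T cells with at least 2 rule genes in 6 bins of UMIs per cell, with exact 95% intervals, for the LatY136F CD45-KO library (red) and the LatY136F library (blue). Right, the percentage of member cells with a UMI of each rule gene. The share climbs with depth in both libraries, up to 30.5% in CD45-KO and 21.2% in LatY136F, and Egr1 is found in 93.2% of CD45-KO and 93.0% of LatY136F member cells.

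The Egr genes carried the definition. Egr1 was detected in 93.2% of member cells in CD45-KO and 93.0% in LatY136F, and Egr3 in 75.8% and 68.5%. Nr4a1 was detected in 29.7% of CD45-KO and 31.7% of LatY136F members, and Egr2 in 21.1% and 22.2%. The least often detected were Tnfrsf9 (8.34% in CD45-KO, 10.3% in LatY136F), Nr4a3 (6.77% and 4.69%) and Nr4a2 (2.78% and 1.65%). Egr1 together with Egr3 was the most common pair, present in 70.4% of CD45-KO and 63.0% of LatY136F members. Cells with Egr genes only were 59.9% of members in CD45-KO and 57.0% in LatY136F, and cells with Nr4a genes only numbered 3 in CD45-KO and 2 in LatY136F. Egr2-positive T cells were the most often members, at 89.7% in CD45-KO and 87.5% in LatY136F, against 28.2% and 27.8% of Egr1-positive T cells. Membership counts these same genes, so such shares are partly set by the rule, and they were not corrected for depth.

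Levels of the rule genes differed between genotypes by unequal amounts. Nr4a3 was at 55.1 CPM in CD45-KO members and 24.2 CPM in LatY136F members, a log2 ratio of 1.18 (0.85 to 1.52). Nr4a2 was at 15.6 CPM in CD45-KO members and 8.42 CPM in LatY136F members (0.89, 0.29 to 1.49). Egr3 was at 664 and 464 CPM (0.52, 0.43 to 0.60), and Egr1 at 1635 and 1360 CPM (0.27, 0.22 to 0.31). For Nr4a1 (195 and 167 CPM), Egr2 (128 and 118 CPM) and Tnfrsf9 (71.1 and 62.6 CPM) the CD45-KO and LatY136F members lay within 0.25 of each other on the log2 scale. Nr4a3 and Nr4a2 were the rule genes past 1.5-fold, both higher in CD45-KO members. Nr4a3 UMIs lay in 95 CD45-KO and 71 LatY136F members, and Nr4a2 UMIs in 39 and 25, so their intervals are too narrow. Cells were selected on these same genes, so the levels are a description only.

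The number of rule genes per cell, which the rule used, is given as a description. T cells with 0, 1 and 2 rule genes numbered 6929, 4313 and 1023 in CD45-KO and 7428, 4699 and 1152 in LatY136F. Another 380 CD45-KO and 361 LatY136F cells held 3 or more, with a maximum of 7 in CD45-KO and 6 in LatY136F. Just inside the threshold, cells with exactly 2 rule genes had 1144 CPM of Egr1 in CD45-KO and 982 CPM in LatY136F. Just outside it, cells with exactly 1 had 682 CPM in CD45-KO and 598 CPM in LatY136F. These levels come from groups of 380 CD45-KO and 361 LatY136F cells for each number of rule genes, matched on UMIs to the cells with 3 or more.

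The promoters of Nr4a1 and Nr4a3 are shown because both genes follow receptor signals that reach cAMP response element binding factors. Each window holds the 250 bases before the RefSeq start in GRCm38.p6, and capitals mark TGACG on either strand, the core of a cAMP response element. Nr4a1 (ENSMUSG00000023034.7, protein coding, chr15:101266596-101266845, plus strand, inside the GENCODE gene span) held 4 such cores.
Nr4a1: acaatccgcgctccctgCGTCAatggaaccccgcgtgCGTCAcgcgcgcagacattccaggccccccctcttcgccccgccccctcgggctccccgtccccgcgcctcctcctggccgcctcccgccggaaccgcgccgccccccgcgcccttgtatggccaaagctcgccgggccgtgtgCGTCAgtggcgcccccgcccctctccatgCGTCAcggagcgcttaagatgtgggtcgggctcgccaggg
Nr4a3: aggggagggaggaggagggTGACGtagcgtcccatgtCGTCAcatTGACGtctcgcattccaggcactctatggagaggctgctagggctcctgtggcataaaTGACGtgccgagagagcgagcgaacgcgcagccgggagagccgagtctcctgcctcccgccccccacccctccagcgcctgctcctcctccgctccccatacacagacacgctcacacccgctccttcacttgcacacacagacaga
The Nr4a3 window (ENSMUSG00000028341.9, protein coding, chr4:48045055-48045304, plus strand, reaching into the GENCODE gene span) also held 4. At least 1 such core occurred in 17.8% of 32851 RefSeq promoter windows of this length, and 4 or more in 0.137%. Neither window held the full palindromic element (1.55% of windows), GGAAA on either strand (55.6%) or a CArG box (1.47%). A match is a description of the letters, not a measured binding site.

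Against matched T cells, member cells had higher levels of 7 of 11 measured cytokine and chemokine genes and 7 of 14 follicular helper genes. The follicular helper result was weaker without the deepest 5% of T cells. Member cells had lower levels of 14 of 28 cell cycle genes, but only where depth was matched. The gene lists overlap in part, so their counts are not separate evidence. A gene was called when it differed by at least 1.5-fold in the same direction in both libraries, among 8821 genes with at least 50 UMIs over both cell groups in each library. The rule genes were left out of these counts. By this measure 82 genes were higher in member cells, 0.93% of those measured, and 57 were lower, 0.646%. In CD45-KO alone 225 genes were higher (2.55%) and 220 lower (2.49%), and in LatY136F alone 195 were higher (2.21%) and 190 lower (2.15%). Without the deepest 5% of T cells 48 genes were higher and 17 lower. The median ratio over all measured genes was -0.01 in CD45-KO and -0.003 in LatY136F.

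**Figure D2:**
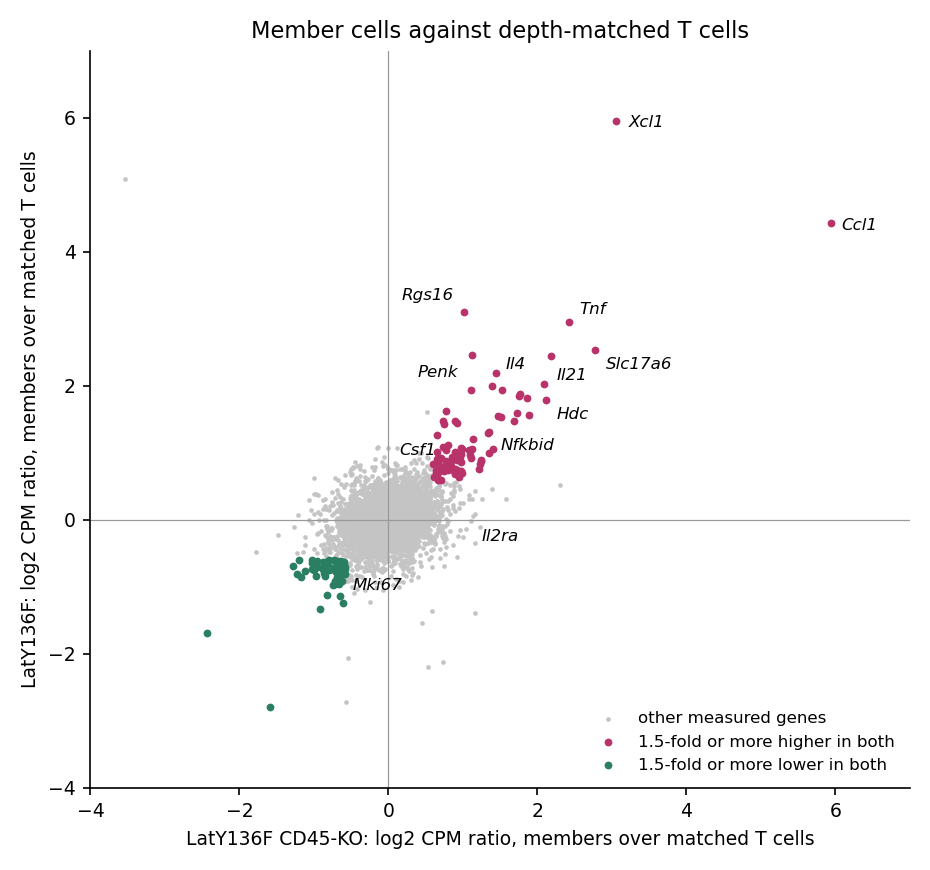
Each point is a measured gene other than the rule genes, at its log2 CPM ratio of member over matched T cells in the LatY136F CD45-KO library (horizontal) and the LatY136F library (vertical). The 82 genes higher in both libraries (magenta) include Ccl1, Tnf and Il21, and the 57 lower in both (green) include Mki67; 1 gene lies outside the axes. Cell cycle genes such as Mki67 are not lower when the remaining T cells are taken without matching on depth.

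Secreted factors were among the genes with the highest ratios. Of 22 genes on the cytokine and chemokine list 11 were measured, and 7 of these were higher in member cells in both libraries, with none lower and with list medians of 1.44 in CD45-KO and 1.87 in LatY136F. Ccl1, a chemokine that attracts CCR8-positive cells, was at 219 CPM in members and 3.57 CPM in matched T cells of CD45-KO, a ratio of 5.94 (5.18 to 6.81). In LatY136F it was at 274 CPM in members and 12.8 CPM in matched T cells (4.42, 4.06 to 4.82). Tnf, the inflammatory cytokine, was at 42.6 CPM in members and 7.91 CPM in matched T cells of CD45-KO (2.43, 1.87 to 3.03), and at 49.5 and 6.39 CPM in LatY136F (2.95, 2.41 to 3.54). These 2 genes thus stood well apart from the matched T cells in each library.

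The canonical helper cytokines of this mouse model also differed. Il4, the defining T helper 2 cytokine, was at 74.7 CPM in members and 27.5 CPM in matched T cells of CD45-KO (1.44), and at 101 and 22.0 CPM in LatY136F (2.19). Il21, which supports germinal centre B cells, was at 35.7 and 8.42 CPM in CD45-KO members and matched T cells (2.08), and at 21.8 and 5.36 CPM in LatY136F (2.02). The 10 members richest in Il21 held 42.1% of its member UMIs in CD45-KO and 62.3% in LatY136F. Lif, a cytokine of the interleukin 6 family, was at 57.1 and 16.8 CPM in CD45-KO (1.76) and at 82.4 and 22.5 CPM in LatY136F (1.87). Csf1, the macrophage growth factor, was higher by 0.76 in CD45-KO and 0.79 in LatY136F. Il6 was at 9.69 CPM in members and 11.99 CPM in matched T cells of CD45-KO, and at 21.6 and 30.7 CPM in LatY136F, so this cytokine did not share the direction.

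Ccl1, Tnf and Il4 were each found in under 11% of member cells, whereas Csf1 was found in 75.9% of CD45-KO and 76.5% of LatY136F members. Ccl1 UMIs were found in 74 CD45-KO members (5.27%) against 12 matched T cells (0.855%), and in 89 LatY136F members (5.88%) against 45 matched T cells (2.97%). The 10 cells richest in Ccl1 held 72.4% of its member UMIs in CD45-KO and 73.9% in LatY136F, so the Ccl1 level rests on a few cells and its counting interval is too narrow for differences between cells. Tnf was found in 7.34% of CD45-KO members and 1.92% of their matched T cells, and in 8.06% and 1.92% in LatY136F. Il4 was found in 9.12% of members and 5.56% of matched T cells in CD45-KO, and in 10.8% and 6.28% in LatY136F. Taking together 18 of the 20 cytokine and chemokine genes in the files, without the broadly detected Csf1 and Tgfb1, at least 1 was detected in 31.9% of CD45-KO members (29.5 to 34.4%) and 18.0% of matched T cells (16.1 to 20.1%). The same shares were 37.5% (35.1 to 40.0%) and 26.6% (24.4 to 28.9%) in LatY136F. Cells of another lineage without T cell transcripts were too few to give a background share, with 5 B lineage cells in CD45-KO and 1 in LatY136F. Cd79a, a B cell gene, was found in 3 member and 8 matched T cells of CD45-KO, and in 9 and 5 of LatY136F.

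**Figure D3:**
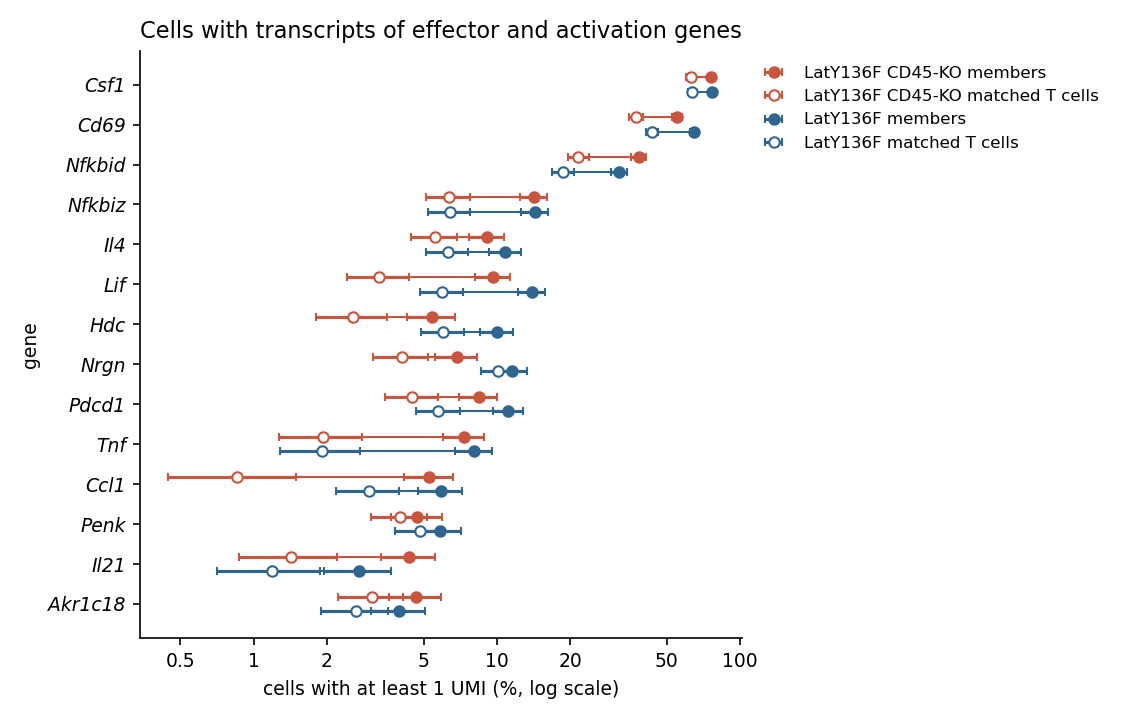
Percentage of cells with at least 1 UMI of 14 effector and activation genes (log scale), with exact 95% intervals, in member cells (filled) and depth-matched T cells (open) of the LatY136F CD45-KO library (red) and the LatY136F library (blue). Member cells lie to the right for each gene and library; the intervals are well apart for Tnf, Nfkbiz and Cd69 and overlap for Penk and Akr1c18.

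Member cells held a large share of the Ccl1 and Tnf UMIs of the libraries. Of all Ccl1 UMIs in T cells, 85.2% lay in member cells in CD45-KO and 79.1% in LatY136F, and of all Tnf UMIs 46.1% and 51.0%. Among the 10 pairs of Ccl1, Il4, Il21, Tnf and Lif, Il4 in Il21-positive members had the highest share, 47.5% in CD45-KO (29 of 61 cells) and 61.0% in LatY136F (25 of 41). The lowest was Il21 in Lif-positive members, 5.93% in CD45-KO and 3.79% in LatY136F. Cells with both Il4 and Il21 were deep, with medians of 4605 UMIs in CD45-KO and 6062 UMIs in LatY136F, and doublets were not removed. Il13 gave 19 UMIs in 3 CD45-KO members and none in matched T cells, and 109 UMIs in 17 LatY136F members and 2 UMIs in 2 matched T cells. Il3 gave 99 UMIs in 2 LatY136F members, 98 of them in 1 cell, and none in CD45-KO members, where 0 of 1403 cells allows a share of cells with a UMI of up to 0.214%, the share of 3 cells. Il2, the T cell growth factor, was found in 1.71% of members and 1.35% of matched T cells in CD45-KO, and in 2.84% and 2.31% in LatY136F, and these intervals overlapped. Ifng was found in 3 members and 5 matched T cells of CD45-KO and in 4 and 4 of LatY136F.

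The promoters of Ccl1 and Tnf are shown because these genes led the ranking of member over matched T cells among genes with at least 20 CPM, by the interval bound nearest 0. Capitals mark GGAAA on either strand, the core of an NFAT site, and any match to the NF-kB consensus.
Ccl1: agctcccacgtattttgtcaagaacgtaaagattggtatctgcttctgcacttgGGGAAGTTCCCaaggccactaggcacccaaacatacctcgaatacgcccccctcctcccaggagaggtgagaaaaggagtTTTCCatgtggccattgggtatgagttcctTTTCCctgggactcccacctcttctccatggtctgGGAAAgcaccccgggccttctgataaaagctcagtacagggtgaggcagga
Tnf: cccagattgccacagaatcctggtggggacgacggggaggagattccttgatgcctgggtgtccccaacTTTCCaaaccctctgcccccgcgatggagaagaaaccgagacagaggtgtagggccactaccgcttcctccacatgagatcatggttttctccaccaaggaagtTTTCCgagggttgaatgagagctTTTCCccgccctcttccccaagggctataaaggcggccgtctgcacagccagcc
Both genes lie on the minus strand of GRCm38, at chr11:82179813-82180062 for the Ccl1 window (ENSMUSG00000020702.13, inside the GENCODE gene span) and chr17:35202008-35202257 for the Tnf window (ENSMUSG00000024401.14). Each window held 3 GGAAA cores, a number reached by 6.39% of all windows. The Ccl1 window also held the NF-kB consensus, found in 7.25% of windows, as 2 overlapping matches on opposite strands. Neither window held TGACG.

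Genes that NF-kB and NFAT switch on, and that restrain or extend the response, were higher in part. Of 16 measured genes on the NFAT and NF-kB list (18 listed), 3 were higher in both libraries and none lower, with medians of 0.29 in CD45-KO and 0.34 in LatY136F. Nfkbid, which encodes the nuclear inhibitor protein IkBNS, was at 252 CPM in members and 99.98 CPM in matched T cells of CD45-KO (1.33, 1.16 to 1.51), and at 175 and 71.5 CPM in LatY136F (1.29, 1.11 to 1.47). Nfkbiz, encoding the related IkB zeta, was at 94.6 and 28.6 CPM in CD45-KO (1.73) and 77.6 and 25.8 CPM in LatY136F (1.59). Rel, an NF-kB subunit gene, was higher by 0.98 in CD45-KO and 0.99 in LatY136F. Nfatc1, the autoregulated NFAT gene, had ratios of 0.54 and 0.63, just under 1.5-fold in CD45-KO.

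Immediate early genes outside the rule mostly had ratios above 0, but few reached 1.5-fold in both libraries. On the AP-1 list 13 genes were above 0 in both libraries, with medians of 0.28 in CD45-KO and 0.40 in LatY136F. Of 16 measured genes on the AP-1 list (20 listed), 2 were called, Fosl2 (1.24 in CD45-KO, 0.90 in LatY136F) and the mRNA decay factor gene Zfp36l1 (0.64 and 0.74). Fos had ratios of 0.51 and 0.47, and Jun 0.23 and -0.10. Among feedback regulators 4 of 21 measured genes (24 listed) were higher and none lower. Dusp2, a nuclear MAP kinase phosphatase gene, was at 745 CPM in members and 402 CPM in matched T cells of CD45-KO (0.89), and at 798 and 397 CPM in LatY136F (1.01). Dusp5 (0.92 in CD45-KO and 0.75 in LatY136F) and Dusp6 (0.89 and 0.76), which restrain ERK, were the next, and Rgs16, a regulator of G protein signalling, had 1.01 and 3.10. Of 14 measured activation transcription factors (17 listed) 4 were higher, Bhlhe40, Crem, Nab2, the corepressor of EGR proteins (1.25 in CD45-KO and 0.87 in LatY136F) and Hivep3 (1.13 and 1.21).

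Some surface molecules of activation and inhibition were also higher. Cd69, the early activation marker that retains cells in tissue, was at 414 CPM in members and 209 CPM in matched T cells of CD45-KO (0.99, 0.87 to 1.11), and at 455 and 219 CPM in LatY136F (1.05, 0.95 to 1.16). It was detected in 55.0% of members and 37.4% of matched T cells in CD45-KO, and in 64.5% and 43.4% in LatY136F. With Cd69, Tnfsf8, Tnfsf11 and Cd200 were the 4 of 17 measured activation surface genes (19 listed) that were higher. Of 10 measured inhibitory receptor genes (11 listed), Pdcd1 (1.47 in CD45-KO and 1.56 in LatY136F), Cd160 (1.53 and 1.94) and Btla (0.78 and 1.05) were higher. Pdcd1 encodes PD-1. Hdc, the histamine-forming enzyme, was at 103 CPM in members and 23.7 CPM in matched T cells of CD45-KO (2.11), and at 171 and 49.6 CPM in LatY136F (1.78). Nrgn, a calmodulin-binding protein gene, had ratios of 1.69 and 1.48, Akr1c18, a steroid dehydrogenase gene, 1.87 and 1.82, and Marcksl1 1.51 and 1.54. The 10 richest members held 50.8% of Nrgn member UMIs in CD45-KO and 41.8% in LatY136F, and 59.4% and 67.7% for Akr1c18. Nrgn was found in 6.84% of members and 4.06% of matched T cells in CD45-KO. In LatY136F it was found in 11.6% and 10.1%, with overlapping intervals. For Hdc the 10 richest members held 55.1% of its member UMIs in CD45-KO and 37.1% in LatY136F. Hdc was found in 5.42% of members and 2.57% of matched T cells in CD45-KO, and in 9.98% and 6.01% in LatY136F. The levels of Hdc, Nrgn and Akr1c18 thus rest in large part on a few cells.

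Follicular helper genes were higher, less so without the deepest cells. Of 14 measured genes on the list (15 listed), 7 were higher in both libraries and none lower, with medians of 0.83 in CD45-KO and 0.62 in LatY136F. They were Bcl6, the lineage-defining repressor (0.89 in CD45-KO and 0.95 in LatY136F), the follicle homing receptor gene Cxcr5 (1.35 and 1.00), Sostdc1 (1.23 and 0.83), Il21, Pdcd1, Cd200 and Btla. Il21 is also on the cytokine and chemokine list, Cd200 on the activation surface list, and Pdcd1 and Btla on the inhibitory receptor list. Without the deepest 5% of T cells the medians were 0.08 in CD45-KO and 0.11 in LatY136F, over 12 measured genes. With cells weighted equally they were 0.36 and 0.24.

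Other helper lists held at most 1 called gene each. Of 7 measured regulatory T genes (12 listed) 1 was higher in both libraries and none lower, with medians of 0.26 in CD45-KO and 0.07 in LatY136F. Of 7 measured T helper 1 and cytotoxic genes (17 listed) none was called, with medians of 0.14 in CD45-KO and -0.11 in LatY136F. In that list 2 genes were at least 1.5-fold higher in CD45-KO members, and 2 were at least 1.5-fold lower in LatY136F members. The T helper 2 list had 1 of 9 measured genes higher (Il4; 15 listed), with medians of -0.07 in CD45-KO and -0.04 in LatY136F, and Gata3, its master regulator, was at 905 CPM in members and 913 CPM in matched T cells of CD45-KO, and at 967 and 919 CPM in LatY136F. Of 18 measured naive and quiescence genes (20 listed) none was called, with medians of -0.13 in CD45-KO and -0.04 in LatY136F. None of 25 measured proximal receptor signalling genes (28 listed) was called, and the largest ratio among them was that of the kinase gene Zap70, 0.65 in CD45-KO and 0.47 in LatY136F. Lists of MYC-linked biosynthesis (23 genes) and glycolysis (12 of 14 listed) held no called gene and had medians within 0.05 of 0. The heat shock and dissociation stress list held no called gene among 14 measured (20 listed), with medians of 0.12 in CD45-KO and 0.07 in LatY136F. Il2ra differed in CD45-KO, at 51.8 CPM in members and 24.0 CPM in matched T cells (1.11, 0.75 to 1.48), and lay at 80.5 and 81.2 CPM in LatY136F (-0.01, -0.22 to 0.19).

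Cell cycle genes were lower in part in members than in T cells of the same depth, whereas without depth matching the median of their list had the other sign. Of 28 measured cell cycle genes 14 were lower in both libraries and none higher, with medians of -0.60 in CD45-KO and -0.63 in LatY136F. Mki67, the proliferation antigen gene, was at 175 CPM in members and 309 CPM in matched T cells of CD45-KO (-0.82, -0.96 to -0.69), and at 274 and 437 CPM in LatY136F (-0.67, -0.77 to -0.57). Birc5, which encodes survivin, had ratios of -0.86 in CD45-KO and -0.84 in LatY136F, and Ccna2, encoding cyclin A2, of -0.90 and -0.72. The replication licensing genes Mcm2 (0.02 in CD45-KO and -0.03 in LatY136F) and Mcm6 (0.12 and -0.21) differed by less than 1.5-fold. Cells with at least 2 of Mki67, Top2a, Rrm2 and Birc5 were 4.42% of members and 6.49% of matched T cells in CD45-KO, and 12.2% and 15.5% in LatY136F.

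This direction depended on the depth correction. Cycling cells were deep, with a median of 4654 UMIs in CD45-KO and 4462 UMIs in LatY136F. Without matching, the mean of the 2 list medians was 0.21, against -0.61 with it. Counted without thinning, 15.4% of cycling T cells in CD45-KO and 14.6% in LatY136F were members, above the 11.1% of all T cells of each library. After thinning to 1000 UMIs, 4.22% (2.48 to 6.67%) of cycling T cells in CD45-KO and 3.97% (2.96 to 5.21%) in LatY136F were members, and these intervals included the shares of all T cells, 5.51% and 4.72%.

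Across T cells with 0, 1, 2 and 3 or more rule genes, cytokine and NF-kB pathway genes among others differed in level. Ccl1 was at 5.06, 3.35, 86.6 and 589 CPM in CD45-KO cells with 0, 1, 2 and 3 or more rule genes, and at 5.39, 17.0, 77.4 and 688 CPM in LatY136F cells. Tnf was at 7.59, 6.71, 11.9 and 94.6 CPM in CD45-KO and at 6.15, 4.63, 21.5 and 123 CPM in LatY136F, so it was low up to 1 rule gene and highest with 3 or more. Nfkbid climbed over all 4 groups, at 82.7, 106, 201 and 394 CPM in CD45-KO and 60.0, 81.8, 117 and 290 CPM in LatY136F. Nfatc1 did the same, at 303, 408, 530 and 701 CPM in CD45-KO and 268, 340, 442 and 585 CPM in LatY136F. Il6 was at 12.7, 10.1, 17.0 and 3.35 CPM in CD45-KO and at 27.7, 27.0, 21.5 and 13.8 CPM in LatY136F, lowest with 3 or more. Mki67 also ran downward, at 445, 311, 295 and 198 CPM in CD45-KO and 609, 438, 379 and 246 CPM in LatY136F. Cd69, Nfkbid and Nfatc1 were thus already higher with 1 rule gene than with 0 in both libraries, and Tnf was not.

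**Figure D4:**
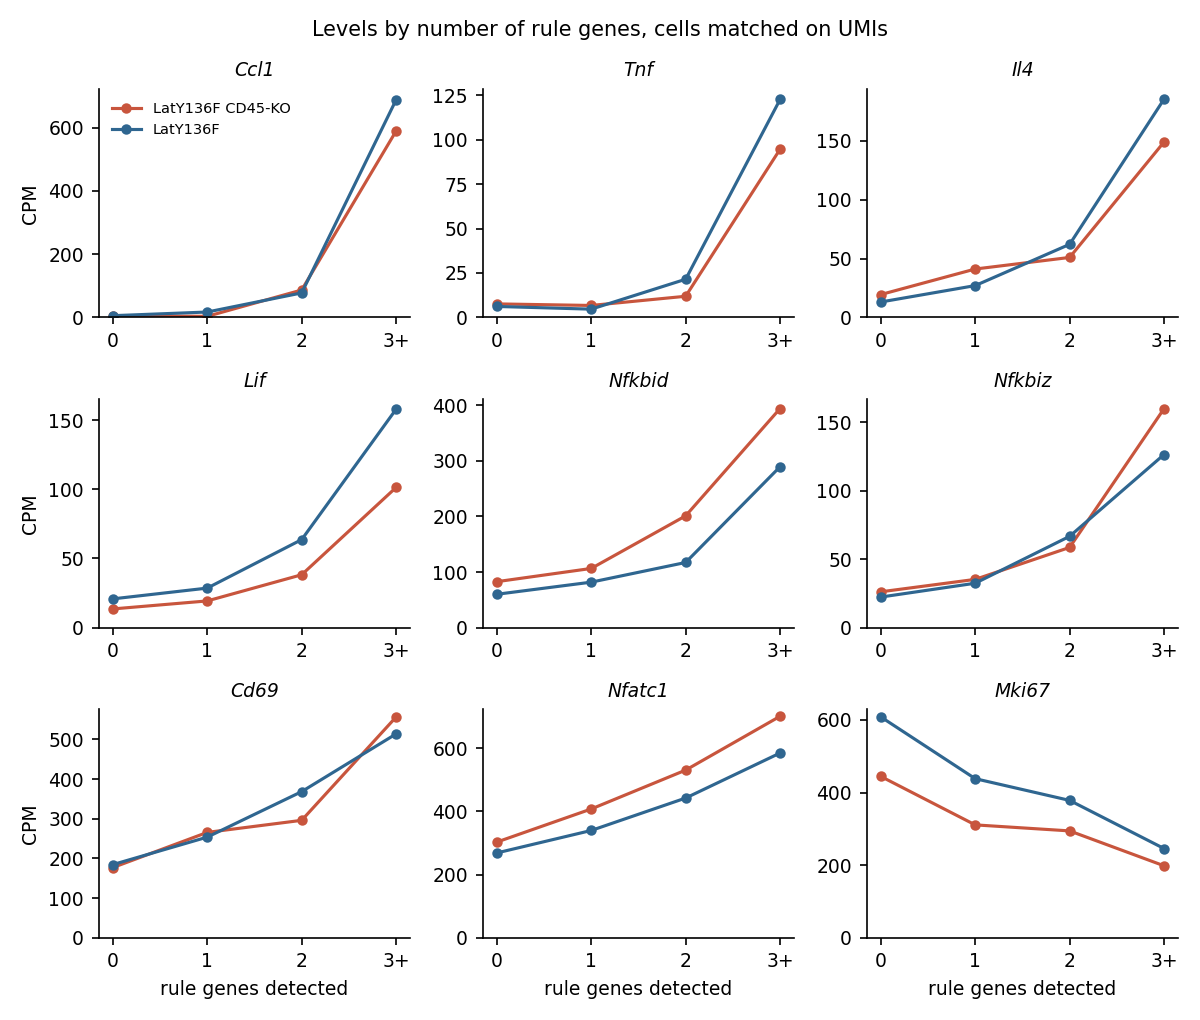
CPM of 9 genes in T cells with 0, 1, 2 and 3 or more rule genes, in groups of 380 LatY136F CD45-KO cells (red) and 361 LatY136F cells (blue) matched on UMIs. Member cells are those with 2 or more; Ccl1 and Tnf are highest with 3 or more, Nfatc1 climbs at each step and Mki67, in these depth-matched groups, is lowest with 3 or more.

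Member cells with Tnfrsf9 stood apart from the other members. They numbered 117 in CD45-KO and 156 in LatY136F, with median depths of 3965 and 3982.5 UMIs, and were set against equal numbers of Tnfrsf9-negative members of the same depth. Ccl1 was at 1181 CPM with Tnfrsf9 and 81.0 CPM without it in CD45-KO (3.87, 3.43 to 4.34), and at 1174 and 76.9 CPM in LatY136F (3.93, 3.56 to 4.33). Cells with Tnfrsf9 held 79.8% of the Ccl1 UMIs of all CD45-KO members and 77.3% of those of LatY136F members, carried by 26 CD45-KO and 24 LatY136F cells. Ccl1 was found in 22.2% of the cells with and 7.69% of the cells without Tnfrsf9 in CD45-KO, and in 15.4% and 10.3% in LatY136F. Few cells carried its UMIs, so the intervals of its ratios are too narrow. Penk, the enkephalin precursor gene, was at 702 and 195 CPM with and without Tnfrsf9 in CD45-KO (1.85) and at 619 and 123 CPM in LatY136F (2.33). Tnfsf8, encoding the CD30 ligand, was detected in 71.8% of the cells with and 39.3% of the cells without Tnfrsf9 in CD45-KO, and in 46.8% and 30.8% in LatY136F. Btla (1.66 in CD45-KO and 1.95 in LatY136F), Il4 (1.45 and 1.39) and Ikzf2, which encodes Helios (1.93 and 1.40), were higher with Tnfrsf9 as well.

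Il7r and S1pr1 were lower in the Tnfrsf9-positive members. Il7r, the interleukin 7 receptor gene, was detected in 60.7% of the cells with and 86.3% of the cells without Tnfrsf9 in CD45-KO (ratio -1.17), and in 63.5% and 87.8% in LatY136F (-0.95). S1pr1, the receptor for exit from lymphoid tissue, was detected in 28.2% and 70.1% in CD45-KO (-1.82), and in 41.0% and 68.6% in LatY136F (-1.12). Tnf did not share the pattern, with ratios of 0.08 (-0.77 to 0.93) in CD45-KO and 0.32 (-0.28 to 0.93) in LatY136F. Egr3 was lower in Tnfrsf9-positive members (-1.85 and -1.60), but a member without Tnfrsf9 must hold 2 of the other rule genes, so that difference is partly set by the rule. Leaving Tnfrsf9 out of the rule kept Ccl1 higher in member cells, at a mean ratio of 4.06 over both libraries against 5.18 with it, and gave a mean Tfh median of 0.40 against 0.73.

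Members with both families were compared with members that held an Egr gene and no Nr4a gene, since too few held Nr4a genes alone. Cells with Tnfrsf9 were kept in both groups. The 478 CD45-KO and 529 LatY136F cells with an Nr4a and an Egr gene had 287 CPM of Ccl1 in CD45-KO, against 53.4 CPM in depth-matched cells with an Egr and no Nr4a gene (2.43, 2.07 to 2.81). In LatY136F the values were 486 and 188 CPM (1.37, 1.18 to 1.56). Tnf was at 70.9 and 24.5 CPM in CD45-KO (1.53, 0.96 to 2.14) and at 94.2 and 24.7 CPM in LatY136F (1.93, 1.43 to 2.46). Rel was higher by 0.78 in CD45-KO and 0.81 in LatY136F, Il21 by 0.94 and 1.33, and Il4 by 0.78 and 1.61. Csf1 (0.08 and 0.15) and Hdc (0.26 and 0.26) differed by less than 1.5-fold. Without the cells that carried Tnfrsf9, in a comparison added after the data were seen, 443 cells of each kind in CD45-KO and 493 in LatY136F remained. Ccl1 was then at 110 CPM with and 17.7 CPM without an Nr4a gene in CD45-KO (2.64, 1.97 to 3.38), and at 112 and 35.5 CPM in LatY136F (1.66, 1.20 to 2.14). Tnf had ratios of 1.29 in CD45-KO and 1.55 in LatY136F, Rel 0.72 and 0.83, and Il4 0.53 (-0.03 to 1.10) and 1.17. The Hdc ratios were 0.74 in CD45-KO and -0.36 in LatY136F. Tnf was thus higher with the Nr4a genes, and its intervals for Tnfrsf9 included 0, whereas Ccl1 was higher with either.

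By coreceptor, most member cells carried Cd4. Cd4 without Cd8a or Cd8b1 was detected in 69.5% of members and 73.3% of matched T cells in CD45-KO, and in 74.4% and 69.1% in LatY136F, so the direction was not shared. Cd8a or Cd8b1 without Cd4 was found in 3 members and 6 matched T cells of each library. Trdc, a gamma delta receptor gene, was found in 28 members and 27 matched T cells of CD45-KO, and in 78 and 70 of LatY136F. Foxp3, the regulatory T cell factor, was found in 1 member and 4 matched T cells of CD45-KO, and in 15 and 8 of LatY136F. Cells with at least 2 B lineage, plasma cell or myeloid markers were 3.49% of members and 3.28% of matched T cells in CD45-KO, and 2.78% and 2.05% in LatY136F. The summed level of 14 B lineage markers was 876 CPM in members and 677 CPM in matched T cells of CD45-KO, and 241 and 520 CPM in LatY136F, most of it from Cd74 and MHC class II genes. The defining genes Pax5 and Ms4a1 gave 2 and 1 UMIs in CD45-KO members and 4 and 15 UMIs in LatY136F members. The 14 myeloid markers summed to 424 and 524 CPM in members and matched T cells of CD45-KO and to 347 and 349 CPM in LatY136F. S100a8 and S100a9 were at 0 UMIs in CD45-KO members, but other myeloid markers were present. Cst3 was at 287 and 169 CPM in CD45-KO cells with 2 and 3 or more rule genes, and at 198 and 171 CPM in LatY136F. Of these lists 1 measured gene, Cd79a, was called, with lower summed UMIs in members of both libraries. By cells with a UMI its direction was not shared. They were 3 members and 8 matched T cells in CD45-KO, and 9 and 5 in LatY136F. The part of other cell types in the results was not tested.

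Between genotypes, about as many genes differed in member cells as in matched T cells, and the called genes overlapped in part. Of 9091 genes with at least 50 UMIs over the members of both libraries, 458 (5.04%) were at least 1.5-fold higher in CD45-KO members and 539 (5.93%) at least 1.5-fold lower. In the matched T cells 576 of 9124 genes (6.31%) were higher and 564 (6.18%) lower. Of the 458 higher genes 204 were also higher in the matched T cells, which is 44.5% of the member genes and 35.4% of the 576 matched genes. Of the 539 lower genes 284 were also lower there, which is 52.7% of the member genes and 50.4% of the 564 matched genes. Member and matched T cells of a genotype come from the same library, so genotype, capture and library cannot be told apart.

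Genes with varied roles led those higher in CD45-KO members. Ifi208, which interferon induces, was at 80.3 CPM in CD45-KO members and 13.8 CPM in LatY136F members (2.54, 2.16 to 2.95), with a ratio of 2.89 in matched T cells. Jun was at 68.6 CPM in CD45-KO members and 18.3 CPM in LatY136F members (1.91, with 1.58 in matched T cells), Selenop at 55.8 and 13.1 CPM (2.09, with 1.83), and Hs3st3b1, a heparan sulfate sulfotransferase gene, at 229 and 88.5 CPM (1.37, with 1.40). Xcl1, a chemokine for cross-presenting dendritic cells, was at 61.4 CPM in 25 CD45-KO members and 12.7 CPM in 7 LatY136F members (2.27). Slc17a6, a vesicular glutamate transporter gene, was at 52.5 and 16.6 CPM (1.66), and was higher in members than in matched T cells of both libraries (2.78 in CD45-KO and 2.53 in LatY136F). Slc17a6 was found in 42 members and 10 matched T cells of CD45-KO, and in 15 and 6 of LatY136F. The 10 richest members held 53.4% of its member UMIs in CD45-KO and 92.6% in LatY136F, so its level rests on a few cells. Xcl1 without the deepest 5% of T cells had a genotype ratio of 0.13, and Slc17a6 0.87.

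The MHC class II genes H2-Aa (3.46), H2-Eb1 (3.14), H2-Ab1 (2.88) and Cd74 (1.45) also had high ratios of CD45-KO over LatY136F members, but a few cells carried them. H2-Aa was detected in 39 CD45-KO and 25 LatY136F members, and 10 cells held 91.3% of its UMIs in CD45-KO members. Without cells that held at least 2 non-T markers, the ratios of H2-Eb1 (-0.08), H2-Ab1 (-0.59) and Cd74 (-0.17) had the other sign.

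Granzyme and proliferation genes were among those lower in CD45-KO members. Gzmb, a cytotoxic protease gene, was at 23.5 CPM in CD45-KO members and 117 CPM in LatY136F members (-2.32), with a ratio of -1.91 in matched T cells. Anxa2, encoding annexin A2, was at 155 and 416 CPM (-1.42, with -1.37 in matched T cells), Camk2b at 24.2 and 84.6 CPM (-1.80, with -1.12) and the survival kinase gene Pim2 at 40.8 and 94.9 CPM (-1.22, with -1.16). Rrm2, the ribonucleotide reductase subunit gene, was at 28.6 and 80.1 CPM (-1.49, with -1.24), Birc5 at 50.7 and 108 CPM (-1.09, with -1.08) and Kif23 at 23.2 and 61.0 CPM (-1.39, with -1.48). Of 28 cell cycle genes, 22 were at least 1.5-fold lower in CD45-KO members (median -0.83) and 22 in CD45-KO matched T cells (median -0.92). Of 18 naive and quiescence genes measured, 7 were higher in CD45-KO members (median 0.43), and 8 of 19 in matched T cells (median 0.46).

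**Figure D5:**
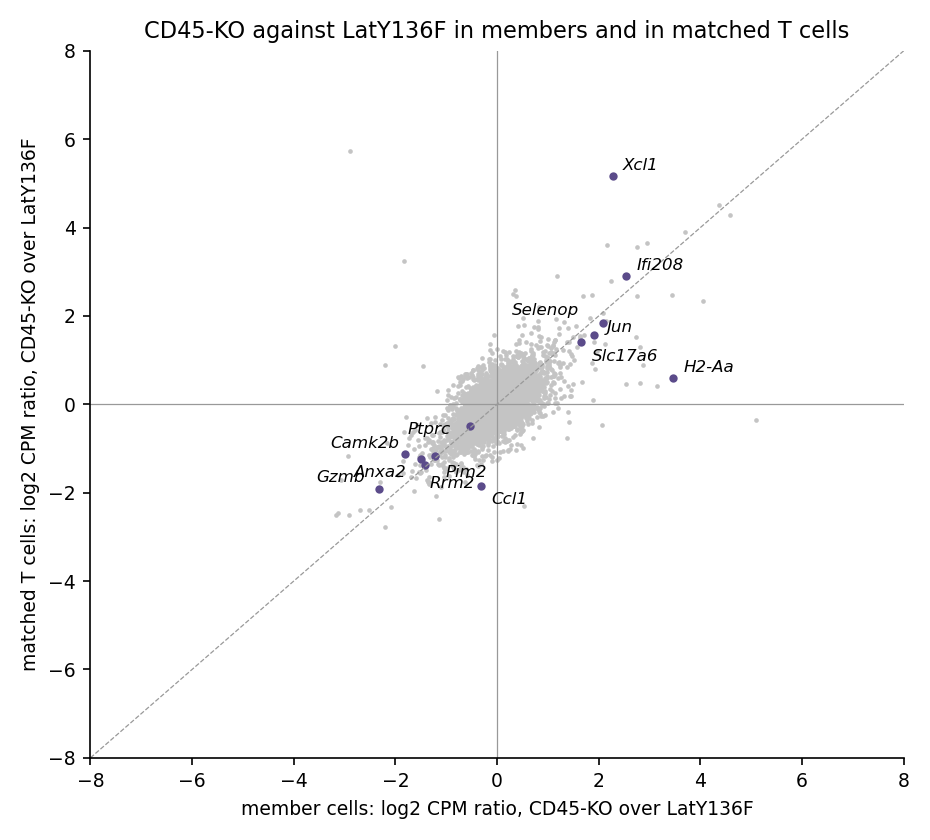
Each point is a gene measured in member cells, at its log2 CPM ratio of LatY136F CD45-KO over LatY136F in member cells (horizontal) and in depth-matched T cells (vertical); the dashed line marks equal ratios. Ifi208 (2.54 and 2.89) and Gzmb (-2.32 and -1.91) lie near the line, H2-Aa lies to its right, and Ccl1 lies at -0.33 in members and -1.84 in matched T cells.

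Ratios of member over matched T cells were also set side by side for the 2 genotypes. Counting intervals of the 2 libraries' ratios of member over matched T cells did not overlap for 136 of 8821 genes, 1.54%, and for the rest overlap does not show that the ratios were alike. Ccl1 was one of them (5.94 in CD45-KO, 4.42 in LatY136F), with members at 219 and 274 CPM and matched T cells at 3.57 and 12.8 CPM. Il4 had the smaller ratio in CD45-KO (1.44, 1.12 to 1.77) than in LatY136F (2.19, 1.89 to 2.51), and so had Penk (1.11 and 1.94) and Rgs16 (1.01 and 3.10). The 10 richest members held 36.5% of Il4 member UMIs in CD45-KO and 46.7% in LatY136F, and 66.5% and 74.0% for Penk. Their intervals are therefore too narrow. Penk was found in 4.70% of members and 3.99% of matched T cells in CD45-KO, and in 5.82% and 4.82% in LatY136F. For Il4 these shares were 9.12% and 5.56%, and 10.8% and 6.28%. Lag3, encoding an inhibitory receptor for MHC class II, was at 23.7 CPM in members and 7.91 CPM in matched T cells of CD45-KO (1.58, 0.98 to 2.22), and at 20.3 and 16.5 CPM in LatY136F (0.30, -0.14 to 0.75). These differences between the genotypes were not tested, as each genotype has 1 library.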

How the data were processed

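The 2 libraries of splenic T cells from mice comprise 1 per genotype. The authors deposited whole-number counts of UMIs per cell and gene, after UMI error correction and with no normalization. Per the file headers, these counts came from the BD WTA Multiplex Rhapsody pipeline 1.9.1 on GRCm38 with GENCODE M19. Pipeline 2.0 (design text) and GRCm39 (per the submitters' processing notes) are named elsewhere, and the headers were followed. Genes absent from 1 file were given a count of 0. Gene spans come from GENCODE M21 and promoters from RefSeq, both on GRCm38, and coordinates are 1-based.

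Cells with fewer than 200 genes or over 25% mitochondrial UMIs were removed (11 CD45-KO and 28 LatY136F cells). No doublet caller was run, and doublets were kept. Sample tags were not used, so each library is 1 sample. Members were matched 1 to 1 without replacement on total UMIs, deepest first. Summed counts were scaled to CPM in Python 3.11.15 with numpy 2.4.6, scipy 1.17.1 and pandas 2.3.3, and figures drawn with matplotlib 3.10.9. Ratios against 0 counts use 3 counts over the group in its place and are bounds. Cells within a library are not replicates, hence there was no test. The coverage of the intervals and the matching were tested on simulated data. UMIs of 1 cell are not independent, so intervals are too narrow where few cells hold a gene's UMIs.

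The members, gene lists and alternatives were chosen with earlier results of these data known. Named genes are the rule genes, Ptprc and Lat, the 12 highest and 12 lowest genes of members over matched T cells with at least 20 CPM, the 10 highest and 10 lowest between genotypes with at least 50 CPM, ranked by the interval bound nearest 0, up to 4 genes per list, and cytokine and marker genes. The ranking leaves out unnamed, sex-linked, haemoglobin, ribosomal and mitochondrial genes and receptor and immunoglobulin segments. Fos, Penk, Mcm2, Mcm6, S1pr1, Il7r, S100a8, S100a9 and the genes of the Tnfrsf9 comparison were chosen after their values were seen. The comparison of cells with Egr genes only and cells with Nr4a genes only could not be made with 3 and 2 cells, and cells with both families were set against cells with an Egr and no Nr4a gene instead. Antisense or overlapping genes cannot be told apart where the counting strand is not given.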

Additional observations from a re-analysis of the deposited data

Results flagged for a closer look

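For 5 genes, member over matched T cells differed by at least 1.5-fold in opposite directions in the 2 libraries, with counting intervals that excluded 0 in both. None of these differences between genotypes was tested, and Ccl5, Ccl6 and H2-Aa were carried by fewer than 40 cells in each group. Ccl5, a chemokine gene of cytotoxic cells, had 1.16 in CD45-KO (105 UMIs in 10 members, 47 UMIs in 9 matched T cells) and -1.39 in LatY136F (31 UMIs in 6 members, 81 UMIs in 9 matched T cells). Ccl6 had -3.54 in CD45-KO (11 UMIs in 7 members, 128 UMIs in 13 matched T cells), and in LatY136F it had 102 UMIs in 6 members and 0 UMIs in matched T cells, where the ratio against the floor of 3 counts over the group is at least 5.08. Gzma, a granzyme gene, had 0.75 in CD45-KO (118 UMIs in 19 members, 70 UMIs in 21 matched T cells) and -0.69 in LatY136F (325 UMIs in 111 members, 522 UMIs in 164 matched T cells). H2-Aa, an MHC class II gene, had 0.73 in CD45-KO (645 UMIs in 39 members, 388 UMIs in 38 matched T cells) and -2.13 in LatY136F (73 UMIs in 25 members, 318 UMIs in 31 matched T cells). Ttc37, which encodes a part of an RNA decay complex, had -0.71 in CD45-KO (50 UMIs in 49 members, 82 UMIs in 70 matched T cells) and 0.63 in LatY136F (76 UMIs in 67 members, 49 UMIs in 44 matched T cells).

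Cells without a UMI of Trac, Cd3e or Cd3g were outside every comparison. Of these, 12 of 189 in CD45-KO (6.35%, 3.32 to 10.8%) and 3 of 107 in LatY136F (2.80%, 0.582 to 7.98%) held at least 2 rule genes, with median depths of 1426 and 1161 UMIs over all such cells. They are given here because no comparison used them. Their shares were below the 11.1% of all T cells in each library, but those T cells were deeper. Among T cells with at least 1000 and under 1500 UMIs, members were 5.90% in CD45-KO and 5.81% in LatY136F. The intervals of the cells without these UMIs included those values.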

How the results depend on the processing

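No paired analysis was possible because each genotype has 1 library and the labels give no replicate numbers. For the same reason no library could be left out. The log2 ratio of the member share (CD45-KO over LatY136F) was 0.22 at 1000 UMIs per cell, 0.0004 without thinning and 0.47 without Nr4a1 and Egr1 as rule genes, and stayed within its counting interval under the other 8 alternatives. The 82 genes higher in members became 130 without Nr4a1 and Egr1, 48 without the deepest 5% of T cells, 148 without matching and 42 with at least 200 UMIs per gene. The 57 lower genes became 17 without the deepest 5%, 102 with at least 20 UMIs and 14 with at least 200 UMIs. Between genotypes the 458 higher genes became 786 with at least 20 and 136 with at least 200 UMIs, and the 539 lower genes 221 with at least 200 UMIs. Fewer or more genes are measured at those minimums, and for the other settings the cause was not tested.

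Without matching on depth, 8 genes of cell division and replication and the cell cycle list had the other sign, with mean ratios of 0.13 for Birc5, 0.0092 for Mki67, 0.22 for Ccna2, 0.16 for Rrm2, 0.28 for Stmn1, 0.12 for Asf1b, 0.25 for Top2a, 0.10 for Ccnb2 and 0.21 for the cell cycle list. The MHC class II genes reversed between genotypes: with at least 3 rule genes H2-Ab1 (-0.39) and Cd74 (-0.10); without Nr4a1 and Egr1, H2-Aa (-0.35), H2-Eb1 (-0.50), H2-Ab1 (-0.79) and Cd74 (-0.38); without cells with non-T markers, H2-Eb1 (-0.085), H2-Ab1 (-0.59) and Cd74 (-0.17); without the deepest 5%, Cd74 (-0.19). Gzma reversed with at least 3 rule genes (0.70) and without Nr4a1 and Egr1 (0.78). For the named genes of members over matched T cells, 384 alternative values were means of the 2 libraries' ratios. Of these, 294 stayed between the mean lower and mean upper bounds of the 2 libraries' counting intervals. Those bounds are not a counting interval of the mean. Between genotypes 179 of 240 alternative values stayed within their counting interval. Ccl1 ran from 4.06 to 6.57, Tnf from 2.46 to 4.13, Il4 from 1.13 to 3.06 and Nfkbid from 1.20 to 2.12. Depth limits genes found in few cells, such as Il13, Il3 and Foxp3.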
